A study of Mus musculus with 10 samples.

Results

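The 10 genes described here were Rgs5, Abcc9, Kcnj8, Ednra, Ednrb, Agtr1a, Pth1r, Vipr1, P2ry14 and Cspg4, which are genes used to mark pericytes and receptors through which hormones and local mediators act on contractile vascular cells. They were taken by exact gene symbol from a table of 62322 entries, of which 25233 carry a symbol. RNA was sequenced in bulk from 5 preparations of hypertrophied hepatic stellate cells (hypHSCs) and 5 of quiescent hepatic stellate cells (qHSCs), and the comparison was hypHSCs against qHSCs. All mice were C57BL/6J, and per the methods male. The hypHSCs came from mice fed CDAHFD, a choline-deficient and high-fat diet low in methionine that gives steatohepatitis and fibrosis, for 13 weeks (hypHSC 1 and 2, at an age of 19 weeks) or 12 weeks (hypHSC 3, 4 and 5, at 18 weeks). The qHSCs came from mice on a standard diet, aged 36 weeks for qHSC 1, 2 and 5 and 34 weeks for qHSC 3 and 4. Livers on CDAHFD were digested with more enzyme and for longer, and hypHSCs were sorted on green and qHSCs on blue intrinsic fluorescence, so diet, age, digestion and sorting gate cannot be told apart from one another. Preparations were selected on RNA quality by the authors, and the labels do not name the mouse behind a library. The hypHSC preparations were chosen from more samples than there were mice, so libraries may share a mouse. The p-values therefore measure the spread between preparations, taken as independent.

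Hepatic stellate cells are the pericytes of the liver sinusoid: they lie around the endothelium, store retinoids and can narrow the vessel. Endothelin and angiotensin II contract such cells through Gq-coupled receptors that raise calcium, while RGS proteins shorten G protein signals and ATP-sensitive potassium channels hyperpolarise the membrane and oppose contraction. Receptors that raise cyclic AMP, such as those for parathyroid hormone and vasoactive intestinal peptide, generally relax vascular cells.

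The unit is the normalized count, that is, reads on a gene divided by the size factor of its library. Each hypHSC library held 30534719 to 43283589 reads on named genes and each qHSC library 35640104 to 47317028. The floor of detection was set at 3 reads, or 2.25 to 4.54 normalized counts, and allows for counting error alone. Differences are log2 fold changes of hypHSCs over qHSCs in log2(normalized count + 1), fitted with limma over the 14630 genes that reached 10 normalized counts in 5 or more of the 10 libraries. Calls needed a change of 1 or more on the log2 scale, in either direction, together with a Benjamini-Hochberg adjusted p no higher than 0.05. For genes with few reads the change is larger than this scale shows, because of the 1 that is added.

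Of the 10 genes, 9 passed the filter and Cspg4 did not. All 9 were called lower in hypHSCs and none higher, against 21.7% of all genes tested that were called lower, 17.8% called higher and 39.5% called in either direction. Every hypHSC library lay below every qHSC library for these 9 genes, as for 22.0% of the genes tested, and the groups stood apart in either direction for 39.5%. With libraries scaled on Hprt, Pgk1 and Actb instead, which moves the median of all genes by -0.93 on the log2 scale, 6989 genes were called lower and 1472 higher, where the deposited scaling gives 3177 and 2602, and the 9 genes stayed called lower. The median log2 fold change of the 9 was -6.75, against -0.20 over all genes tested, and 7 of the 9 lay under -5, where 332 genes (2.27%) lay. Vipr1 passed the filter through its qHSC libraries alone, so it could only have been tested as a gene that is higher there. Together the 10 genes held 4280 to 6024 reads in a hypHSC library and 281733 to 421939 in a qHSC library.

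**Figure D1:**
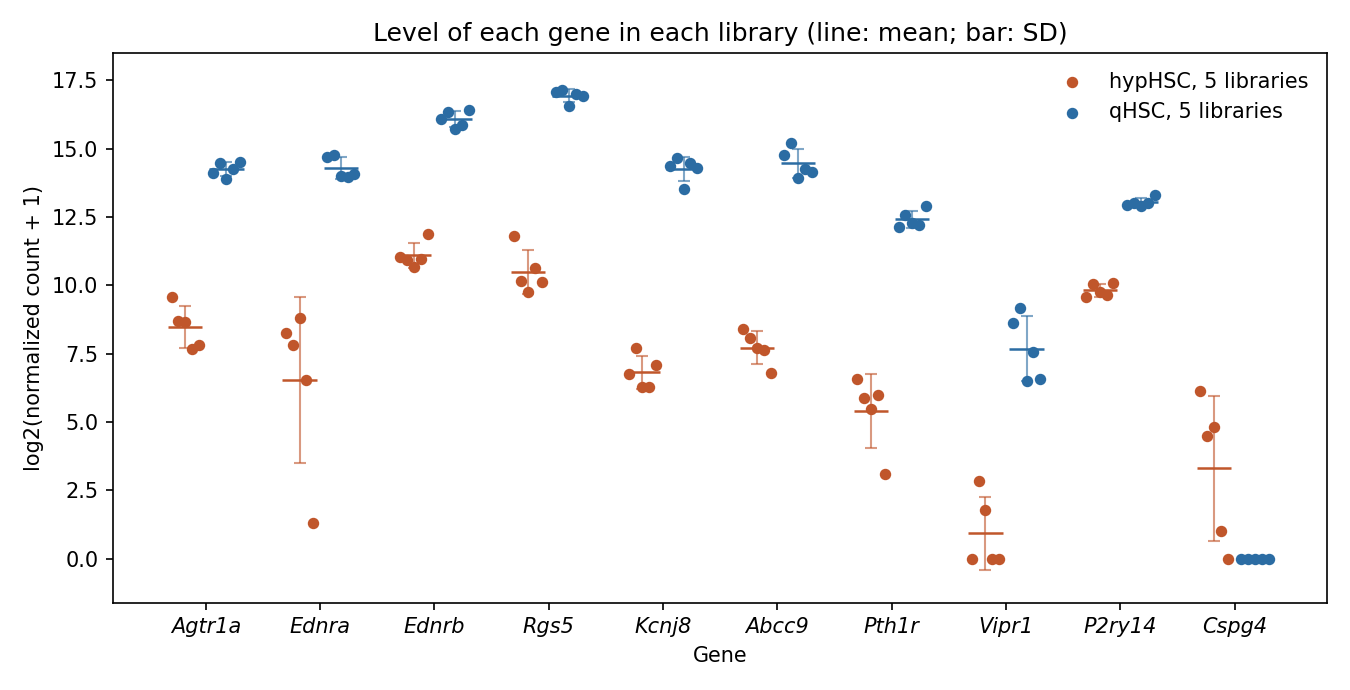
Level of each of the 10 genes, as log2(normalized count + 1) on the vertical axis, in the 5 hypHSC libraries (orange) and the 5 qHSC libraries (blue); lines are means and bars SD. Blue points lie above all orange points for 9 genes, and for Cspg4 the 5 blue points lie at 0 while 4 orange points lie above it.

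Other measurements moved with the same contrast. All 10 markers of quiescent stellate cells (among them Lrat, Reln, Ngfr, Hhip, Des, Gfap, Colec10, Tcf21 and Lhx2) were called lower in hypHSCs, with a median log2 fold change of -6.01, and their summed level was 4717 to 11533 normalized counts in hypHSCs and 201606 to 297261 in qHSCs. Hhip passed the filter through its qHSC libraries alone, so it could only be tested as lower in hypHSCs. All 8 core macrophage markers (Adgre1, Cd68, Csf1r, Fcgr1, Ptprc, Lyz2, Cd14 and Mertk) were called higher (7 of 8 when scaled on Hprt, Pgk1 and Actb), and summed to 4272 to 57501 normalized counts in qHSCs against 993775 to 1223332 in hypHSCs. The hypHSC libraries are labelled as hepatic stellate cells, and in these marker lists they were low in stellate and high in macrophage transcripts. Vascular smooth muscle markers summed to 493 to 1953 in hypHSCs and 8317 to 10997 in qHSCs (4 of 6 tested called lower), sinusoidal endothelial markers to 5598 to 7198 and 987 to 2535 (3 of 7 higher, 1 lower), and hepatocyte markers to 8862 to 97712 and 19723 to 65515 (none of 7 called). The endothelial sum in hypHSCs was mostly Fcgr2b, which macrophages also carry and which averaged 5287 normalized counts in hypHSCs against 133 in qHSCs. The other endothelial genes called higher were Oit3 (265 against 8.59) and Stab2 (274 against 111, limma, adjusted p = 0.0429). Clec4g, the one called lower, averaged 173 against 1166. Portal fibroblast markers summed to 312 to 2838 in hypHSCs and 299 to 602 in qHSCs (4 of 6 tested called higher, none lower), mesothelial markers to 515 to 1504 and 127 to 232 (3 of 4 higher), and T and NK cell markers to 2542 to 3911 and 5.11 to 148 (1 of 2 higher). The T and NK sum in hypHSCs was mostly Il7r, which averaged 2719 normalized counts there and had at most 6 reads in a qHSC library. Il7r passed the filter through its hypHSC libraries alone, so it could only be tested as higher there. The same held for Gli1 of the portal fibroblast list and for Gpm6a and Krt19 of the mesothelial list. Nkg7 averaged 144 against 63.9 and was not called (limma, adjusted p = 0.506). Cd3e, Cd3g and Klrb1c were not tested, and averaged 7.02, 12.3 and 89.9 normalized counts in hypHSCs. The part of these differences in the results for the 10 genes was not tested, and in bulk RNA fewer cells of a type and less RNA per cell cannot be told apart.

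Agtr1a, Ednra and Ednrb are the receptors that couple angiotensin II and endothelins to contraction. Agtr1a (GSMG0013157, chr13:30520339-30566850, + strand of GRCm39, deposited coordinates of the whole gene), the main angiotensin II receptor of mouse vessels, measured 760.0, 416, 399, 202 and 224 normalized counts in hypHSC 1 to 5. In qHSC 1 to 5 it measured 17838, 22698, 15194, 19708 and 23130.5. The highest hypHSC library, hypHSC 1, stood below the lowest qHSC library, qHSC 3, by more than an order of magnitude, and the means were 400.3 ± 224 (SD, n = 5) and 19714 ± 3336 (SD, n = 5). The log2 fold change was -5.77 (standard error 0.33, limma, adjusted p = 2.79e-07). In an exact two-sided permutation test over the 252 arrangements of 5 libraries against 5, p was 0.00794 for Agtr1a and for each of the other 8 genes tested, the smallest value this design can give.

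Ednrb (GSMG0017688, chr14:104052051-104081912, - strand), the endothelin receptor that takes all endothelins alike, stood at 2102, 1947, 1614, 2003 and 3801 normalized counts in hypHSC 1 to 5. The corresponding qHSC values were 70226, 82913, 54026, 59486 and 87368. The groups did not overlap, hypHSC 5 was the highest of its group, and the means were 2293 ± 862 and 70804 ± 14413 (SD, n = 5 each). The log2 fold change was -4.99 (standard error 0.24, limma, adjusted p = 1.04e-07). Per length, Ednrb had the highest mean of the 10 genes in hypHSCs, where its range overlapped that of Rgs5.

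Ednra (GSMG0055218, chr8:78389658-78451094, - strand), the endothelin receptor with preference for endothelin-1, spread widely among hypHSCs, with 302, 224, 452, 92.3 and 1.51 normalized counts in hypHSC 1 to 5. The value of 1.51 in hypHSC 5 was a single read, under the floor of detection. In qHSC 1 to 5 the gene measured 26434, 28238, 16272, 16078 and 17220.1, where qHSC 1 and 2 stood above the other libraries. The groups did not overlap, and the log2 fold change was -7.75 (standard error 1.16, limma, adjusted p = 0.000245), or -6.45 without hypHSC 5. Of the exon bases of Ednra, 29.6% also lie in exons of the genes 4933431K23Rik and Gm45714, and since the counting did not use strand, reads from there cannot be separated. That share and the FPKM length use GENCODE exons, which begin at 78386590, outside the deposited coordinates. Ednra also shares stretches of 59 bases, the read length, with 122 other genes, and Ednrb with 10. The part of these in the levels of the 2 genes was not tested.

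The balance of the 2 endothelin receptors was compared within each library as the log2 ratio of Ednrb to Ednra. It was 2.80, 3.12, 1.84, 4.42 and 10.57 in hypHSC 1 to 5 and 1.41, 1.55, 1.73, 1.89 and 2.34 in qHSC 1 to 5. Ednrb exceeded Ednra in each of the 10 libraries, and hypHSC 3 lay inside the qHSC range while the other 4 hypHSC libraries lay above it. The means differed by 2.76 (standard error 1.57, exact permutation test, p = 0.0238). That difference rested in part on hypHSC 5, without which it was 1.26 (exact permutation p = 0.0317), and without any 1 of the qHSC libraries p was 0.0873 to 0.103.

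**Figure D2:**
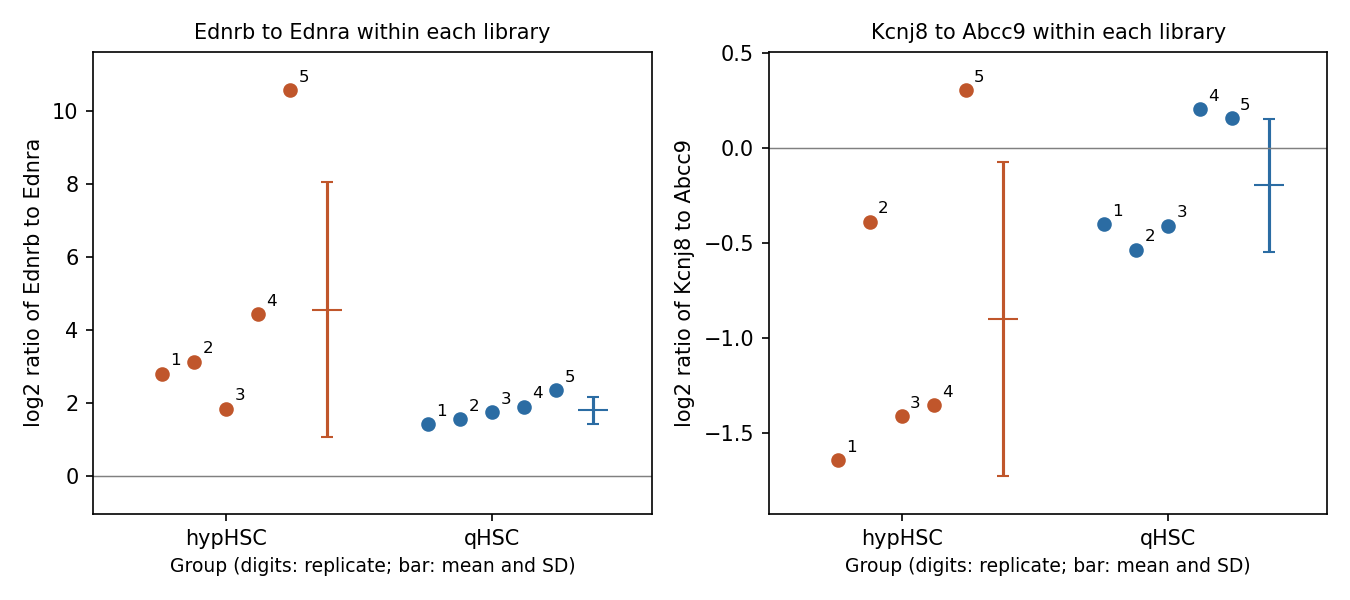
Log2 ratio of Ednrb to Ednra (left) and of Kcnj8 to Abcc9 (right) within each library, by group, with replicate numbers beside the points and the mean and SD as a bar. On the left 4 of 5 hypHSC libraries lie above the qHSC range of 1.41 to 2.34, and on the right hypHSC 1, 3 and 4 lie below the qHSC libraries while hypHSC 2 and 5 do not.

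The ligands and enzymes of both systems went in several directions. Of the 8 genes of the endothelin axis other than the receptors, 4 were tested, 1 was called higher, 1 lower and 2 neither, and their median log2 fold change was 1.78. Ece1, the enzyme that releases active endothelin, fell from 3783 ± 2264 to 174 ± 169.8 normalized counts (range 0 to 392 in hypHSCs, log2 fold change -6.40, limma, adjusted p = 0.00545). Its homologue Ece2 was called higher at 1.34 (limma, adjusted p = 0.0465), close to the threshold. No gene of the list was called higher with libraries scaled to the same total or on Hprt, Pgk1 and Actb. Nor was any without hypHSC 1, 2 or 3, or without any 1 of the qHSC libraries. The same held without the filter on low values, with only hypHSCs at 12 weeks of diet and with only qHSCs from mice of 36 weeks. With DESeq2, with edgeR, with an added count of 5 and without hypHSC 5, 2 genes of the list were called higher. The ligand gene Edn1 averaged 181 ± 109 normalized counts in hypHSCs against 12.3 ± 17.8 in qHSCs, which did not pass limma's test (3.57, limma, adjusted p = 0.0829), and Edn2 had no read in any library.

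Of the 12 genes of the angiotensin axis other than Agtr1a, 8 were tested, 2 were called higher, 2 lower and 4 neither, with a median log2 fold change of -0.70. Over the 24 alternatives 1 to 2 were called higher and 1 to 4 lower, with 1 higher and 4 lower when scaled on Hprt, Pgk1 and Actb, and 1 lower without hypHSC 5. Ace passed the filter through its hypHSC libraries alone. Ace, which makes angiotensin II, was higher in hypHSCs by 4.01 on the log2 scale, at a low level of 68.1 ± 44.2 normalized counts. Atp6ap2, the prorenin receptor and a proton pump subunit, was higher by 1.53, and Agtrap, which promotes internalisation of the angiotensin receptor, was lower (-1.10). Agt, which encodes angiotensinogen, did not pass the test (-1.03, limma, adjusted p = 0.139). The renin gene Ren1 and the type-2 receptor gene Agtr2 had no read in any library, and Agtr1b had at most 18 reads in a qHSC library and none in hypHSCs.

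Rgs5 (GSMG0001132, chr1:169483068-169523382, + strand) speeds the hydrolysis of GTP by Gq and Gi proteins and is a widely used pericyte marker. Per length it had the highest mean of the 10 genes in qHSCs, where its range overlapped that of Ednrb. It measured 137594, 146733, 96216, 129940.4 and 125606 normalized counts in qHSC 1 to 5. The hypHSC libraries 1 to 5 held 3586, 1157, 859, 1576 and 1116. The highest of these, hypHSC 1, was still far below the lowest qHSC library, qHSC 3, and the log2 fold change was -6.45 (standard error 0.34, limma, adjusted p = 1.56e-07). The hypHSC mean was 1659 ± 1107 and the qHSC mean 127218 ± 19103 (SD, n = 5 each). The stretch before the Rgs5 start is shown because the gene is the leading pericyte marker of the set, and capitals mark any of the motifs named further on. It is the part, free of annotated exons, of the 250 bases before the RefSeq start nearest to the deposited 5′ end (table of build GRCm38.p6), found by exact match in GRCm39 at chr1:169482820-169483035 on the + strand.
Rgs5: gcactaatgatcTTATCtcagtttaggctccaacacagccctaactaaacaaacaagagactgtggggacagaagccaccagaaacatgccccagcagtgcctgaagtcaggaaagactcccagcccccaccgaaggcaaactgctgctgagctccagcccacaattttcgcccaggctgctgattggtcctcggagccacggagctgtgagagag
The capitals are a GATA site on the opposite strand.

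Other RGS genes went in both directions. Of 20 further members, 14 were tested, 5 were called higher in hypHSCs, 6 lower and 3 neither, with a median log2 fold change of -0.17. Rgs4, another regulator of Gq and Gi signals, fell from 40763 ± 12448 to 214 ± 187 normalized counts (-7.90). Rgs20 had no read in hypHSCs and was at least 36.0-fold higher in qHSCs against 3 reads in each hypHSC library. Rgs18 (6.01) and Rgs1 (5.92), both found chiefly in blood cells, rose.

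Kcnj8 and Abcc9 encode the pore and the sulfonylurea receptor of the vascular ATP-sensitive potassium channel. They are neighbours on the - strand of chromosome 6, Kcnj8 (GSMG0047542) at chr6:142510564-142517340 and Abcc9 (GSMG0047543) at chr6:142533588-142648000, with 16247 bases between the deposited ends. Kcnj8 measured 106, 207, 77.3, 76.6 and 135 normalized counts in hypHSC 1 to 5 and 21296, 26117, 11711, 22819 and 20154 in qHSC 1 to 5. The hypHSC libraries stood at 0.375% to 1.01% of the qHSC mean, and the log2 fold change was -7.45 (standard error 0.31, limma, adjusted p = 4.42e-08).

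Abcc9 measured 334, 271, 207, 197 and 109 normalized counts in hypHSC 1 to 5, and 28135, 37848, 15557, 19813 and 18074 in qHSC 1 to 5. Its groups did not overlap, qHSC 2 was the highest and hypHSC 5 the lowest library, and the log2 fold change was -6.75 (standard error 0.32, limma, adjusted p = 1.01e-07). The gene 5330439B14Rik, which shares 1.36% of the exon bases of Abcc9, had 1916 ± 770.3 normalized counts in qHSCs and 17.8 ± 18.4 in hypHSCs (SD, n = 5 each).

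The log2 ratio of pore to sulfonylurea receptor, Kcnj8 to Abcc9, was -1.64, -0.39, -1.41, -1.35 and 0.30 in hypHSC 1 to 5 and -0.40, -0.54, -0.41, 0.20 and 0.16 in qHSC 1 to 5. The means differed by -0.70 (standard error 0.40), which did not pass an exact permutation test (p = 0.143). Without hypHSC 5 the difference was -1.001 (exact permutation p = 0.0317), so 1 library decided that call. Of 14 other inward rectifier and sulfonylurea receptor genes, 5 were tested, 2 were called higher (Kcnj2, 6.05, and Kcnj10, 3.83), 1 lower and 2 neither, with a median of 0.11. The number called higher was 0 to 2 over the 24 alternatives and stayed at 2 in 13 of them. It was 1 with DESeq2, with edgeR and without hypHSC 1, 3 or 4 or qHSC 2, 3 or 5, among others. The limma adjusted p was 0.0304 for Kcnj10 against 6.79e-05 for Kcnj2. The lower one, Kcnj5, had no read in hypHSCs and was at least 32.9-fold higher in qHSCs, computed against 3 reads in each hypHSC library, or at least 18.8-fold without qHSC 1. Abcc8 and Kcnj11, which form the pancreatic form of the channel, had no read and at most 2 reads in a library, respectively.

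Pth1r and Vipr1 are class B receptors that raise cyclic AMP. Pth1r (GSMG0059897, chr9:110551153-110576213, - strand), the receptor of parathyroid hormone, measured 95.7, 58.0, 44.1, 63.0 and 7.56 normalized counts in hypHSC 1 to 5 and 4521, 6032, 5034, 4695 and 7686 in qHSC 1 to 5. As for Ednra and Abcc9, hypHSC 5 was the lowest library, with 5 reads. The groups did not overlap, and the log2 fold change was -7.01 (standard error 0.55, limma, adjusted p = 2.45e-06). Its exons share 1.99% of their bases with Myl3, whose level was 169 ± 42.8 normalized counts in qHSCs and 7.48 ± 16.7 in hypHSCs (SD, n = 5 each).

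Vipr1 (GSMG0057676, chr9:121471781-121502019, + strand), a receptor of vasoactive intestinal peptide, was the lowest of the 9 tested genes. Its values were 396, 577, 89.8, 189 and 94.4 normalized counts in qHSC 1 to 5, with qHSC 1 and 2 well above qHSC 3 and 5. In hypHSC 1 to 5 they were 0, 6.21, 2.49, 0 and 0, that is, no read in 3 libraries, 3 reads in hypHSC 3 and 6 in hypHSC 2. The fitted log2 fold change was -6.76 (standard error 0.78, limma, adjusted p = 4.07e-05), and it was -5.06 with an added count of 5, and 4 of the 5 hypHSC libraries were at or under the floor.

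The stretches before the starts of both genes are shown because these receptors of 1 class fell together. They are the exon-free parts of the 250 bases before the RefSeq start nearest to the deposited 5′ end of each gene (table of build GRCm38.p6), found by exact match in GRCm39 at chr9:110576260-110576463 (- strand) for Pth1r and chr9:121471532-121471774 (+ strand) for Vipr1.
Pth1r: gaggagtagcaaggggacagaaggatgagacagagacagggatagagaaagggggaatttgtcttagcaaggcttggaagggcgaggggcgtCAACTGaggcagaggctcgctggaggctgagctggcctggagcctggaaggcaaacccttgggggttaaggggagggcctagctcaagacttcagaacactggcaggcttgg
Vipr1: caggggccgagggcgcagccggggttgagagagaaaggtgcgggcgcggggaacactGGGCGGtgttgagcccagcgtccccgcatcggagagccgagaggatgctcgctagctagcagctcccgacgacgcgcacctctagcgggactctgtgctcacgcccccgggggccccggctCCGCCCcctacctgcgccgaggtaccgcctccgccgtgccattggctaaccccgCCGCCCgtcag
The capitals are an E-box in Pth1r and GC boxes in Vipr1, and the 2 stretches share none of the motifs searched.

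Of 22 other class B receptors, their ligands and partner proteins, 7 were tested and all 7 were called lower, with a median log2 fold change of -5.68, but Glp2r and Adcyap1r1 had passed the filter through their qHSC libraries alone and could be tested in that direction only. The glucagon receptor gene Gcgr changed by -7.58, the glucagon-like peptide receptor gene Glp2r by -7.36, Calcrl, the shared receptor of adrenomedullin and CGRP, by -6.39, and Adcyap1r1, the PACAP receptor gene, by -5.68. The ligand genes Pth, Pthlh, Vip and Adcyap1 had no read in any library. Vipr2, the other receptor of vasoactive intestinal peptide, was too low to be tested, with 17.2 ± 13.1 normalized counts in hypHSCs and 4.71 ± 6.72 in qHSCs.

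P2ry14 (GSMG0062951, chr3:59022039-59061040, - strand), a Gi-coupled receptor for UDP-glucose and related UDP-sugars, kept the largest share of its qHSC level. It measured 761, 1064, 871, 795 and 1079.9 normalized counts in hypHSC 1 to 5 and 7766, 8353, 7708, 8240.3 and 10188 in qHSC 1 to 5. The libraries of each group were close to one another, with the highest 1.42 times the lowest in hypHSCs and 1.32 times in qHSCs, and the groups did not overlap. The log2 fold change was -3.21 (standard error 0.16, limma, adjusted p = 1.07e-07), and the hypHSC libraries stood at 9.01% to 12.8% of the qHSC mean. For the other 8 tested genes no hypHSC library exceeded 5.37%, and the summed quiescent stellate markers stood at 1.90% to 4.65%.

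**Figure D3:**
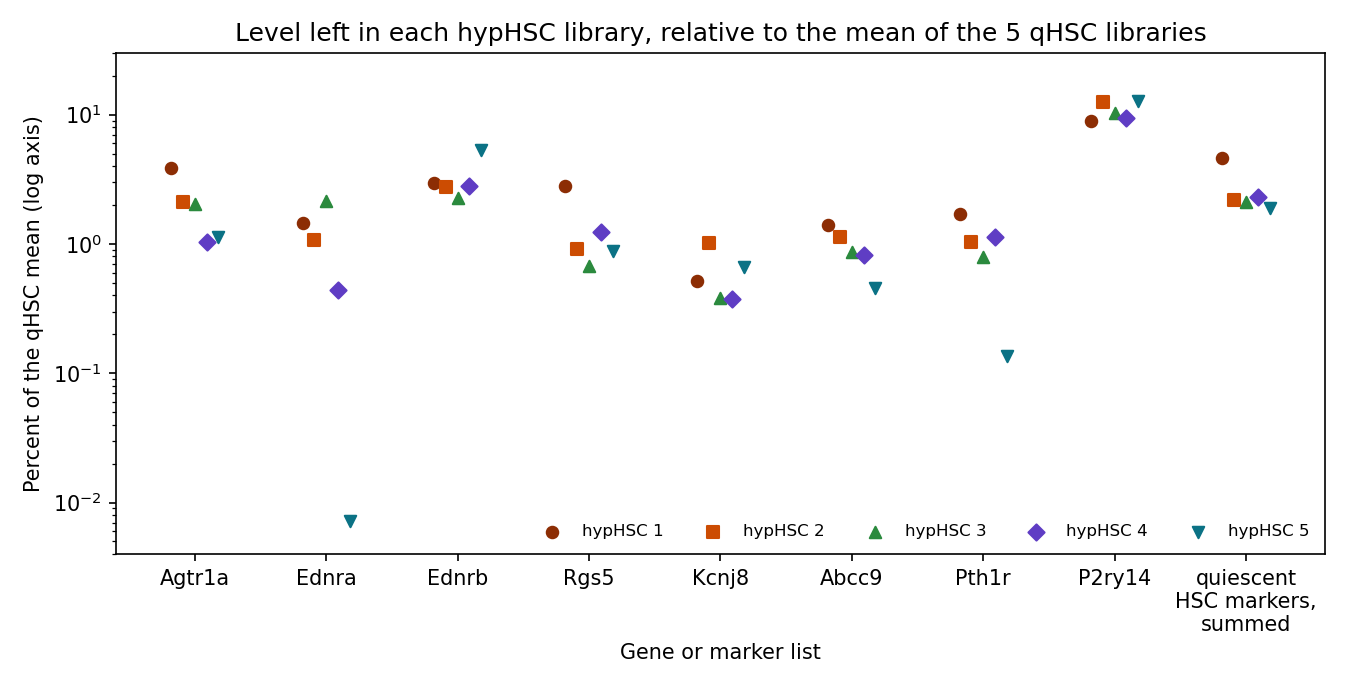
Normalized count of 8 genes and of the summed quiescent stellate cell markers in each hypHSC library, as a percent of the mean of the 5 qHSC libraries, on a log axis; symbols are the 5 hypHSC libraries. Only P2ry14 lies above 9% in each library, and Ednra and Pth1r in hypHSC 5 lie far below the other points; Vipr1, with 3 libraries at 0, is left out.

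Of 21 other purinergic receptors and nucleotide-degrading enzymes, 17 were tested, 6 were called higher, 4 lower and 7 neither, with a median log2 fold change of 1.62. Scaled on Hprt, Pgk1 and Actb, 4 were called higher and 5 lower. P2ry6, a receptor of UDP, rose by 5.19 on the log2 scale and the adenosine receptor gene Adora2b by 4.99. Adora2a, another adenosine receptor gene, fell from 8116 ± 2211 to 318 ± 199 normalized counts (-4.98), and Nt5e, the enzyme that makes adenosine from AMP, fell from 4402 ± 1843 to 5.42 ± 2.61 (-9.38), having passed the filter through its qHSC libraries alone.

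Cspg4 (GSMG0056553, chr9:56772316-56807154, + strand) encodes the NG2 proteoglycan, a surface marker of pericytes in many tissues. No read fell on it in any of the 5 qHSC libraries, although its summed exon length of 11964 bases is the longest of the 10. In hypHSC 1 to 5 it had 52, 21, 33, 1 and 0 reads, or 70.1, 21.7, 27.4, 1.05 and 0 normalized counts. It was the only one of the 10 genes with a higher mean in hypHSCs, 24.1 ± 28.5 normalized counts (SD, n = 5), at least 9.66-fold higher than qHSCs when 3 reads are set in each qHSC library, or at least 5.04-fold without hypHSC 1. The summed portal fibroblast markers stood at 2838, 1650.2, 1137, 724 and 312 normalized counts in the same 5 libraries, highest in hypHSC 1 and lowest in hypHSC 5 as Cspg4 was. The summed quiescent stellate markers were likewise highest in hypHSC 1 (11533) and lowest in hypHSC 5 (4717). Vascular smooth muscle markers were highest in hypHSC 1 (1953) and lowest in hypHSC 4 (493). The part of these lists in the level of Cspg4 was not tested. The groups met at 0, through hypHSC 5 (exact permutation p = 0.0476). Cspg4 missed the filter with 10 normalized counts in 3 libraries, and was called higher (3.30, standard error 1.07, limma, adjusted p = 0.0286) where every gene with a read was fitted. Its promoter stretch is shown as that of the gene with the opposite order of groups, again the exon-free part before the nearest RefSeq start, at chr9:56772138-56772316 of GRCm39 on the + strand.
Cspg4: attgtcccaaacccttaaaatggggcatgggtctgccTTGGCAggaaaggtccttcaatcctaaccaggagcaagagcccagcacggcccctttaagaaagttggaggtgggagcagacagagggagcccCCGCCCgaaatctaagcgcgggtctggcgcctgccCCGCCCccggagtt
The capitals are an NF1 site and GC boxes.

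Of 8 other chondroitin sulfate proteoglycan genes, 4 were tested, 1 was called higher (Cd44, 3.01), 1 lower and 2 neither, with a median of -0.42. The lower one, Ptprz1, had no read in hypHSCs and was at least 23.8-fold higher in qHSCs against 3 reads in each hypHSC library.

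The motifs were searched on both strands of the 300 bases from 250 before to 50 after each start, in all 32851 such promoters of the RefSeq table, alternative starts included. Of the 10 genes 9 had a promoter there, 14 in all, since Pth1r had 3 starts and P2ry14 had 4 (Agtr1a was not in the table), and the stretches printed are those at the start nearest to the deposited 5′ end. The GC box (GGGCGG) was in 35.7% of all promoters and in 5 of the 14 (1 each of Abcc9, Vipr1 and Cspg4 and 2 of Pth1r, the printed one not among them). The E-box (CANNTG) was in 72.3% and in 8 of the 14, and the GATA site (GATAA) in 25.4% and in 5 (1 of Rgs5, 1 of Pth1r and 3 of P2ry14). Abcc9 held a TEAD site (CATTCC, 14.7% of all), Cspg4 an NF1 site (TTGGCA, 14.1%), 2 promoters of P2ry14 an AP-1 site (TGANTCA, 7.81%) and 1 of P2ry14 a TATA box (TATAAA, 13.6%). No CArG box (1.63%) was found in the 14. A match is a description of letters in this window only, promoters of 1 gene can overlap, and no motif was found in a promoter of every gene that fell.

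**Figure D4:**
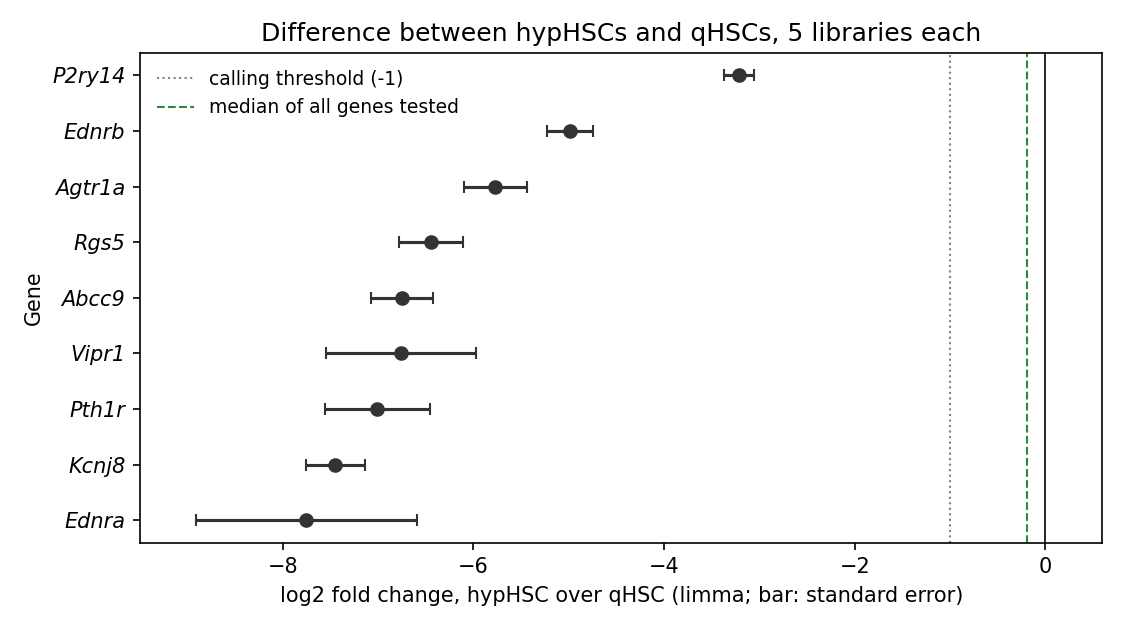
Log2 fold change of hypHSCs over qHSCs on the horizontal axis for the 9 genes tested, with the standard error of limma as a bar. The genes run from -3.21 for P2ry14 to -7.75 for Ednra, and all lie far to the left of the calling threshold at -1 and of the median of all genes at -0.20.

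Levels were set side by side per length as FPKM, reads scaled to the summed exon length of the gene and to the reads of the library on named genes. In qHSCs the order was Rgs5 (630.5 ± 87.3 FPKM, SD, n = 5), Ednrb (478 ± 77.5), Kcnj8 (165 ± 41.4), Agtr1a (129.8 ± 16.7), Ednra (70.7 ± 20.4), Abcc9 (62.8 ± 23.9), Pth1r (35.5 ± 6.57), P2ry14 (22.9 ± 1.57), Vipr1 (1.40 ± 1.10) and Cspg4 (0). The libraries of neighbours overlapped for Rgs5 and Ednrb, for Kcnj8 and Agtr1a, and along Ednra, Abcc9 and Pth1r, so the order within those is not resolved. With the longest transcript as length, Kcnj8 and Agtr1a changed places, as did Ednra and Abcc9.

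In hypHSCs the order by FPKM was Ednrb (11.9 ± 3.27, SD, n = 5), Rgs5 (6.44 ± 4.39), Agtr1a (2.12 ± 1.24), P2ry14 (1.94 ± 0.321), Kcnj8 (0.761 ± 0.346), Ednra (0.610 ± 0.540), Abcc9 (0.469 ± 0.192), Pth1r (0.274 ± 0.162), Cspg4 (0.0505 ± 0.0582) and Vipr1 (0.00752 ± 0.0114). Only the step from P2ry14 to Kcnj8 separated neighbours without overlap. P2ry14 stood below both channel genes in qHSCs and above them in hypHSCs.

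Libraries of a group did not rank alike for all genes. Among hypHSCs, hypHSC 1 was the highest for Rgs5, Abcc9, Agtr1a, Pth1r and Cspg4, and hypHSC 5 was the highest for Ednrb and P2ry14 and the lowest for Abcc9, Ednra and Pth1r. The summed quiescent stellate markers were also highest in hypHSC 1 (11533) and lowest in hypHSC 5 (4717), and the summed hepatocyte markers were highest in hypHSC 5 (97712), and the part of these in the order was not tested. The means at 13 weeks of diet (2 libraries) and 12 weeks (3 libraries) were 2372 and 1184 normalized counts for Rgs5, 588 and 275 for Agtr1a, 913 and 915 for P2ry14, and 2025 and 2473 for Ednrb, with no test at this size. The Rgs5 mean at 13 weeks rested on hypHSC 1 (3586), since hypHSC 2 (1157) lay within the range of the 12-week libraries. The higher Ednrb mean at 12 weeks rested on hypHSC 5 (3801), since hypHSC 3 (1614) and hypHSC 4 (2003) lay below the 13-week mean. The 2 libraries at 13 weeks also had more mitochondrial reads (12.8% and 7.27%, against 2.21% to 3.42% at 12 weeks) and more reads on entries without a symbol (29.1% and 20.1%, against 10.8% to 13.2%), and the part of these in the means was not tested. Among qHSCs, qHSC 3 was the lowest for 7 genes (Rgs5, Abcc9, Kcnj8, Ednrb, Agtr1a, Vipr1 and P2ry14), and qHSC 2 the highest for 5 (Rgs5, Abcc9, Kcnj8, Ednra and Vipr1).

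The genes most alike in pattern were found as those with the smallest root mean square difference in mean-centred log2(normalized count + 1) over the 10 libraries, among the 10792 genes that averaged 100 normalized counts or more. For Rgs5 these were Bco1 (0.231) and Colec11 (0.243), for Agtr1a the guanylate cyclase subunit gene Gucy1b1 (0.251) and Abi3bp (0.265), and for Ednrb Slmap (0.274) and Hs3st3b1 (0.306). For P2ry14 they were Shfl (0.207) and Ifih1 (0.219), both genes that respond to interferon. The match was looser for the genes with more spread, with Fendrr (0.435) for Abcc9, Cdh18 (0.546) for Kcnj8, Sod3 (0.488) for Pth1r and Abcc9 (0.920) for Vipr1. The measure is led by the difference between groups and describes likeness only.

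Other genes used to mark pericytes were mostly lower as well. Of 20 such genes outside the set, 16 were tested, 13 were called lower, 1 higher and 2 neither, with a median log2 fold change of -4.52. Over all genes tested, 21.7% were called lower and 17.8% higher. The lists overlap: Des is also a quiescent stellate and a vascular smooth muscle marker here. Rgs4 is also in the RGS list and Enpep in the angiotensin list. Mcam, an adhesion molecule of vessel walls, changed by -6.89, Heyl, a Notch target, by -6.59, and Ndufa4l2, a hypoxia-induced mitochondrial protein, by -6.07. Anpep, an aminopeptidase that myeloid cells also carry, rose from 324 ± 137 to 6041 ± 4197 normalized counts (3.99). Notch3 did not pass the test (-0.69, limma, adjusted p = 0.378), and the pericyte transcription factor genes Foxf2 and Tbx18 had no read in any library.

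Downstream of the receptors, 22 genes of Gq, calcium and contraction signalling were tested, of which 11 were called lower, 1 higher and 10 neither, with a median of -1.27. The subunits of the nitric oxide receptor Gucy1b1 (-5.81) and Gucy1a1 (-4.09), the cyclic GMP kinase gene Prkg1 (-5.10) and Pde5a, which degrades cyclic GMP (-3.36), were the largest falls of the list, and Plcb2, a phospholipase of blood cells, rose (2.81). Of 44 receptors for other vasoactive mediators, 28 were tested, 10 were called higher, 11 lower and 7 neither, with a median of -0.16, and 5 were higher and 14 lower when scaled on Hprt, Pgk1 and Actb. Those with the largest changes were S1pr3 (-6.13), a sphingosine-1-phosphate receptor gene, Adra2b (-6.10), an adrenergic receptor gene, the serotonin receptor gene Htr2b (5.88) and Npr2 (-5.73), a natriuretic peptide receptor gene. Among the tested genes of the 10 lists, those at 0 reads in hypHSCs (Kcnj5, Rgs20 and Ptprz1) also passed the filter through qHSCs alone. So did Rgs7, P2rx1, Adra1b and Tbxa2r, as well as Glp2r, Adcyap1r1 and Nt5e named above. All of these could only be tested as lower in hypHSCs. Ptger4, like Ace, passed through hypHSCs alone and could only be tested as higher there. All 10 lists were drawn up with earlier results of these data known, and their counts are descriptions.

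**Figure D5:**
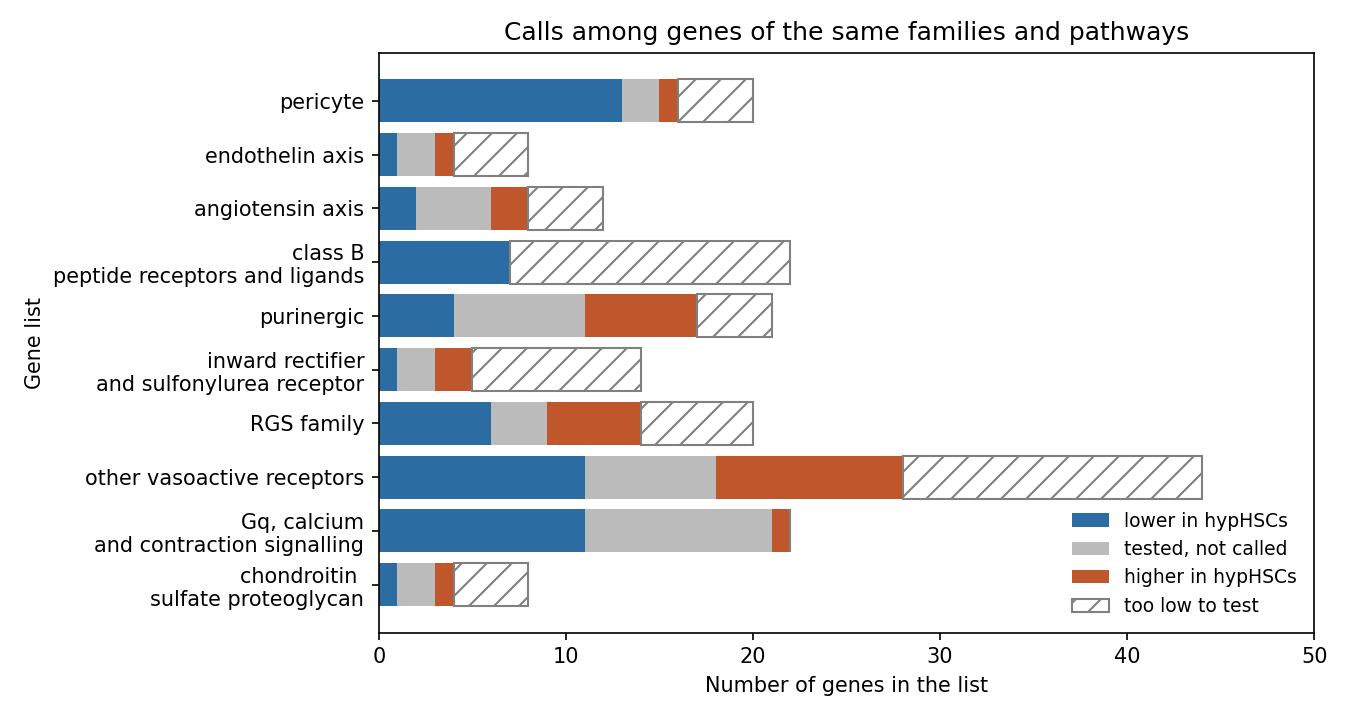
Number of genes in each of the 10 lists that were called lower in hypHSCs (blue), tested and not called (grey), called higher (orange) or too low to be tested (hatched). Lower calls make up most of the tested genes of the pericyte list (13 of 16) and all of the class B list (7 of 7), while the purinergic, RGS and other vasoactive lists hold calls in both directions.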

How the data were processed

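Bulk RNA-seq of 10 libraries was analysed, 5 of hypHSCs and 5 of qHSCs, grouped by their titles. The authors made libraries with oligo dT priming without strand information, aligned reads with STAR to the mouse genome (mm39), counted them with featureCounts (Subread 1.5.0, per the submitters' processing notes) and normalized them with DESeq2. The deposited values are a signal of reads divided by a size factor, and whole reads were recovered from the steps between low values (100% of values whole, tolerance 0.006 normalized counts). The table holds no column of the authors' own comparisons.

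Named genes that reached 10 normalized counts in 5 or more libraries were tested with limma 3.58.1 (R 4.3.3, trended variance) on log2(normalized count + 1) with Benjamini-Hochberg adjustment, after the scripts were tested on simulated data. Single values and ratios used exact two-sided permutation tests. FPKM used the recovered reads and GENCODE exon lengths. The count tests edgeR 4.0.16 and DESeq2 1.42.0 on recovered reads, other scalings, filters and pseudocounts, and leaving out each library were alternatives.

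The 10 genes and all lists were chosen with earlier results of these data known. All 10 genes were named, and of each list the up to 4 called genes with the largest absolute change and ligands or partners of the 10 genes. Anpep, Notch3, Foxf2, Tbx18, Plcb2, Vipr2, Agtr1b and Agtr2 were named after their values were seen. Some genes that this rule or the lists include are not reported here. Entries without a symbol held 10.8% to 29.1% of reads in hypHSCs and 8.98% to 10.2% in qHSCs, and mitochondrial genes 2.21% to 12.8% and 1.25% to 1.61%.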

Additional observations from a re-analysis of the deposited data

Results flagged for a closer look

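P2ry14 in qHSC 5, at 10188 normalized counts, stood apart from the other 4 qHSC libraries (7708 to 8353), with a gap to the nearest of them of 0.712 of the range of the group on the log2 scale. Each of the 10 genes was examined in each group, 20 combinations in all (Cspg4 in qHSCs had no spread), and chance alone sets about 1 in 20 apart by this measure. Without qHSC 5 the gene was still called lower in hypHSCs.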

How the results depend on the processing

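Each of the 9 tested genes was called lower in hypHSCs under all 24 alternatives run for it. Leaving out 1 library at a time gave -8.32 to -6.45 for Ednra, -7.24 to -6.39 for Vipr1 and -3.28 to -3.14 for P2ry14, and the other alternatives gave -8.74 to -6.60, -7.43 to -5.06 and -4.15 to -3.10. Without the filter on low values 1 of the 10 genes, Cspg4, was called higher. Over all genes, scaling on Hprt, Pgk1 and Actb gave 6989 lower and 1472 higher calls, and including entries without a symbol gave 5380 and 3911. On recovered reads, edgeR called 2650 genes lower and 2630 higher, and DESeq2 2960 and 2862. The difference in the Ednrb to Ednra ratio was 1.26 to 3.44 with 1 library left out, and p rose to between 0.0873 and 0.103 without any 1 qHSC library. The Kcnj8 to Abcc9 difference was -1.001 to -0.51, with p below 0.05 only without hypHSC 5. With the replicate number as a block, the same 9 genes were called lower, with 3229 lower and 2557 higher calls over all genes. Same-numbered libraries had correlations of 0.00816 to 0.129 in their deviations from the group means, and only hypHSC 5 correlated best with its own number. The labels give no pairing beyond the number, and low correlations cannot exclude one. Depth limits Cspg4 and Vipr1, which had few or no reads in 1 group.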
